A study of Mus musculus with 9 samples.

Results

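The 10 genes described here encode feedback regulators and transcription factors of growth factor signalling: the Sprouty genes Spry1, Spry2 and Spry4, the SPRED genes Spred1, Spred2 and Spred3, the PEA3 group of ETS factors (Etv1, Etv4 and Etv5), and the ETS factor gene Ets2. They were chosen by name and found as the rows of the count table whose Ensembl identifier belongs to these symbols in GENCODE M21, which gave 10 of the 48526 genes of the table. Neural stem cells (NSCs) came from the subependymal zone (SEZ) of adult wild-type C57BL/6 mice (C57BL/6J by the study's methods) and were grown as neurospheres, which are floating colonies, in medium with EGF and FGF. Differentiation was induced by placing the cells on an adhesive substrate in medium with FGF but without EGF, and RNA was sequenced before the switch (0 h) and 1 h or 6 h after it, which gave 9 libraries, 3 for each time point. The groups carry no transgene or mutation and differ in time after EGF withdrawal, so the change of medium itself cannot be told apart from the loss of EGF. The methods describe, for cells fixed early after induction, a first seeding in complete medium before EGF is withdrawn; whether the sequenced cultures were seeded in this way is not stated, so neither is the time they had spent on the substrate. The cells are cultured, and what libraries with the same replicate number share (a mouse, a culture or a day) is not stated in the labels. The p-values therefore measure the spread between these samples, which may be technical.

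EGF and FGF bind receptor tyrosine kinases that switch on RAS and, through the RAF and MEK kinases, the MAP kinase ERK. ERK activity induces the genes of its own inhibitors: Sprouty proteins act between receptor and RAF, and SPRED proteins bring neurofibromin, which inactivates RAS, to the membrane. The PEA3 factors are transcribed when ERK removes the repressor Capicua from their genes, and they are widely used as readouts of FGF signalling. In the medium used after 0 h one of the inputs of this pathway, EGF, was taken away while the other, FGF, stayed.

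The total count per library was between 65871454 and 105592597 reads. All 10 genes passed the expression filter, with between 970 and 62094 reads of a member in a library, so counting error is small beside the difference between replicates. Markers fitted the label of the cells in part: Nes, Sox2 and Fabp7 had means of 1777.4, 110.2 and 2036.5 CPM (reads of a gene scaled to a common library size), while Gfap had 1.092 CPM and Prom1 8.396 CPM. The summed level of the 8 NSC markers was 6959.5 to 8503.5 CPM at 0 h, 6736.8 to 9068.2 at 1 h and 5984.5 to 7676.7 at 6 h. The sum of the 5 markers of oligodendrocyte progenitors was 1690.5 to 2288.4 CPM at 0 h, 1834 to 2195.9 at 1 h and 2162.1 to 2510.1 at 6 h, although Sox10 was near 0 (0.1281 CPM). Neuronal markers summed to 964.2 to 1483.1 CPM at 0 h, 834.6 to 1503.8 at 1 h and 1002.1 to 1566.8 at 6 h, most of it Map2, and ependymal markers to 38.47 to 93.29 CPM, most of it Foxj1. Microglial markers never exceeded 0.5696 CPM in sum, those of endothelial cells and pericytes 8.084 CPM, and those of oligodendrocytes 8.218 CPM. Within the lists, single markers differed at 6 h against 0 h in edgeR with the replicate block described below. Of the 6 neuronal markers 4 were higher and 0 lower: Syt1 (log2 fold change 1.63, adjusted p = 3.0e-07), Rbfox3 (1.23, 6.8e-05), Tubb3 (1.06, 2.1e-06) and Snap25 (0.50, 0.0190). Of the 8 NSC markers Nes (-0.43, adjusted p = 3.2e-05), Vim (-0.28, 0.00150) and Gfap (-0.63, 0.0282) were lower, and Slc1a3 (0.31, 2.8e-04) was higher. Of the 5 progenitor markers 4 were higher, with Cspg4 first (1.41, adjusted p = 1.1e-08). Cspg4 was also called without the block (adjusted p = 0.00672). The part of such shifts in the results below was not tested, and fewer cells of a type cannot be told apart from less RNA per cell.

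The sequences around the starts of 6 of the transcripts are shown because the known repressor of the PEA3 genes, Capicua, binds a short word that can be read directly. They are RefSeq promoter windows on GRCm38.p6 of 300 bases, 250 before the start site and 50 from it, written 5′ to 3′ along the gene's strand, and 8 of the 10 genes had 1 or more windows (10 windows in all). Etv5 has an upstream start at chr16:22439521-22439820 on the minus strand and a downstream start at chr16:22438319-22438618 on the minus strand. Spred3 lies at chr7:29168598-29168897 on the minus strand, Spred1 at chr2:117120821-117121120 on the plus strand, Ets2 at chr16:95702157-95702456 on the plus strand and Spry2 at chr14:105896770-105897069 on the minus strand. Capitals mark matches to the Capicua word TGAATG or its extended form TGAATGAA, the ETS word CCGGAA and the FOXO word TGTTTAC on either strand.
Etv5 upstream start: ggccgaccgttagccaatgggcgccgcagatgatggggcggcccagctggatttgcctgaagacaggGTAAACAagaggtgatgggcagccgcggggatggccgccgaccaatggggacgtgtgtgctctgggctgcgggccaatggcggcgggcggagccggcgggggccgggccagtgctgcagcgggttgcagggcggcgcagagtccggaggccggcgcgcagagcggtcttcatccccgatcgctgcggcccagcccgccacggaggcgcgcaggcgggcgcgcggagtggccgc
Etv5 downstream start: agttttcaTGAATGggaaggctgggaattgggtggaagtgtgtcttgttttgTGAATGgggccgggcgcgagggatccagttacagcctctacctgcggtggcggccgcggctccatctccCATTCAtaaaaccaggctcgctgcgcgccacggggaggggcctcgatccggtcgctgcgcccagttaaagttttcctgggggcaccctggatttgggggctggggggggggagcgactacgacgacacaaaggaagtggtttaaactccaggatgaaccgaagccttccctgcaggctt
Spred3: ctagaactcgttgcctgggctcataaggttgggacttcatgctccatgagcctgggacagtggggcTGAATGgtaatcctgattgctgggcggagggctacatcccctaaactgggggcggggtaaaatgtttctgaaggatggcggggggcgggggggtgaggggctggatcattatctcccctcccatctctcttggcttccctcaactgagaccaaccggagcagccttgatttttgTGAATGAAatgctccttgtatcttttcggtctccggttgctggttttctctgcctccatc
Spred1: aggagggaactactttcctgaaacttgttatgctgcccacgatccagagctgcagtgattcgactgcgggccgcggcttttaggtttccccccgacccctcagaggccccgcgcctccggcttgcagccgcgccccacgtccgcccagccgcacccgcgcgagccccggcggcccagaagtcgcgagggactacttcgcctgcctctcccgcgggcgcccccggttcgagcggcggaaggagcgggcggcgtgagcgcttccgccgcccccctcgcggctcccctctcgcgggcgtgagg
Ets2: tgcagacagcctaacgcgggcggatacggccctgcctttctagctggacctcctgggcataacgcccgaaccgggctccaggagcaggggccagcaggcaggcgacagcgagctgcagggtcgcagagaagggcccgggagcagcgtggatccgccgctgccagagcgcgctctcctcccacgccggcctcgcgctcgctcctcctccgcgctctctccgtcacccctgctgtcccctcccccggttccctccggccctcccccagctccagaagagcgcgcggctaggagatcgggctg
Spry2: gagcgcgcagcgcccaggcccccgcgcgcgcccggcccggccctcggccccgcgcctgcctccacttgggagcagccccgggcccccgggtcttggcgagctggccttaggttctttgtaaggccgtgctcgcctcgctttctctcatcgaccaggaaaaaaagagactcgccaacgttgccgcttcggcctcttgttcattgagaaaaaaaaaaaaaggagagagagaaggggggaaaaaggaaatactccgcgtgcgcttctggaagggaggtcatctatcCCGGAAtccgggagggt

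The word TGAATG stood 3 times in the downstream Etv5 window, with its first base 242, 198 and 129 bases before the start site, the last on the other strand. Of 32851 promoter windows of the mouse genome 12.7% held the word at least once and 0.17% held it 3 or more times. Spred3 held TGAATG at 184 bases and the longer form TGAATGAA at 10 bases before its start, the longer form (which contains the shorter) being present in 1.3% of all windows. The other 8 member windows held neither TGAATG nor the variant TGAATGGA. The ETS word CCGGAA was found in 1 member window, Spry2, 34 bases after the start, against 14.9% of all windows, and the extended ETS word CCGGAAGT in none, against 3.89%. The looser ETS-like word AGGAAG, present in 35.4% of all windows, was found in Spred2, Etv1 and the downstream Etv5 window. The FOXO word was found in 1 member window, the upstream Etv5 window at 183 bases before the start, and in 3.65% of all windows. No member window held the AP-1 word TGAGTCA (5.2% of all windows), the CREB word TGACGTCA (1.79%), an EGR word (GCGGGGGCG in 2.91%, GCGTGGGCG in 0.612%) or a CArG box, the site of serum response factor (1.63%). The GC content of the member windows was 44% to 74%, with a median of 52.7% over all windows. A match is a description of the letters and not of binding, and none of these words was tested against expression.

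The members were present at very different levels. Levels can be compared between genes only per length, so the CPM were divided by the length of all annotated exons. The mean over the 9 libraries was 142.6 CPM per kb for Etv5, 95.17 for Spry2, 55.37 for Etv4, 48.49 for Spry1, 46.31 for Spred1, 41.24 for Spry4, 21.34 for Spred2, 13.89 for Spred3, 6.175 for Etv1 and 3.665 for Ets2. The exons of Etv1 sum to 13296 bases over its isoforms, against 2087 to 6784 for the other 9 genes; which isoforms the cells use was not measured. Etv5 stood above Spry2 in 8 of 9 libraries, and Spry2 above Etv4 in 9 of 9. Etv4, Spry1, Spred1 and Spry4 followed as a run of neighbours whose ranges overlapped: Etv4 was above Spry1 in 7 of 9 libraries, Spry1 above Spred1 in 5 and Spred1 above Spry4 in 7. Spred2, Spred3, Etv1 and Ets2 came after them with no overlap between neighbours. Within families 1 gene led throughout. Spry2 made up 50.06% to 54.52% of the Sprouty level per kb in the 9 libraries, Spred1 51.69% to 62.03% of the SPRED level and Etv5 61.33% to 75.05% of the PEA3 level, of which Etv1 was 2.237% to 4.088%.

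**Figure D1:**
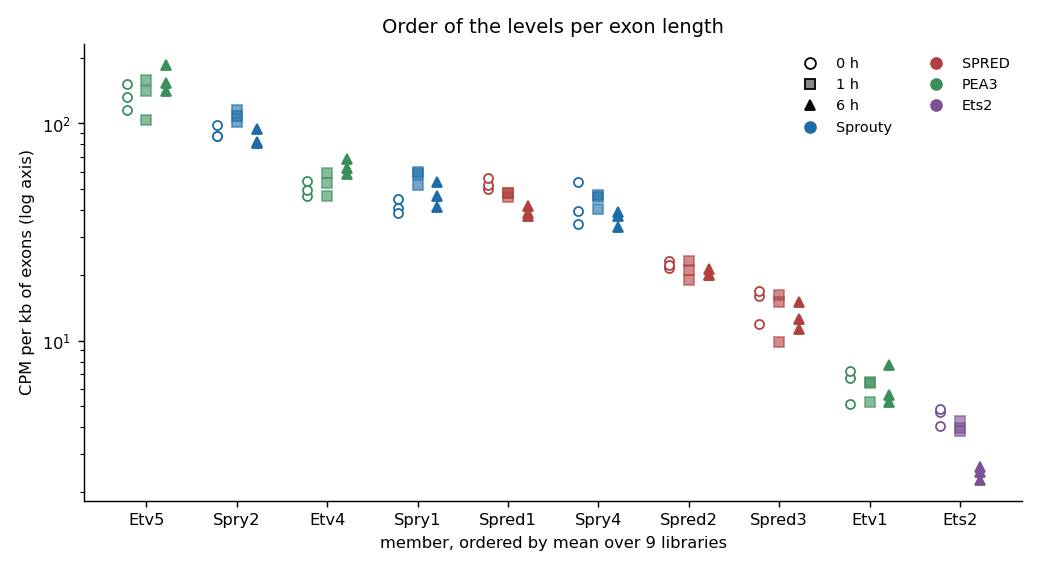
Level of each of the 10 genes in CPM per kb of exons on a log axis, ordered by the mean over the 9 libraries; each symbol is 1 library, its shape gives the time point and its colour the family. Etv5 is the highest (mean 142.6) and Ets2 the lowest (mean 3.665), and Ets2 is the gene whose 6 h symbols lie farthest below its others.

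Ets2 and Spred1 had less RNA at 6 h than at 0 h, and these were the members that passed the test without pairing the libraries. With the replicate number as a block, which compares each library with the same-numbered libraries, Etv4 and Etv5 were also higher at 6 h, and Spry1 was higher at 1 h. In the fit without the block no member was called at 1 h against 0 h, where 0.0424% of the 18858 tested genes were called (edgeR quasi-likelihood test, Benjamini-Hochberg adjusted p under 0.05), although 3 members had an unadjusted p under 0.05 and DESeq2 called 0. For 6 h against 0 h 2 of 10 members were called, both lower, against 2.42% of all genes (1.46% higher and 0.955% lower). From 1 h to 6 h 1 member was called, lower, against 2.14% of all genes (1.48% higher and 0.663% lower). With the block 1 member was called at 1 h against 0 h, higher, where 3.51% of all genes were called (1.36% higher and 2.14% lower). With the block 4 members were called at 6 h against 0 h, 2 higher and 2 lower, against 34.9% of all genes (17.4% higher and 17.5% lower). The count with the block at 6 h against 1 h was 6, 2 higher and 4 lower, against 35.6% of all genes (18.0% higher and 17.5% lower). The share of members called with the block at 6 h against 0 h is thus near that of all genes. By direction within the replicate numbers, 2 members were higher in 3 of 3 replicates at 1 h against 0 h and 4 lower (20.8% and 22.4% of all genes), 2 higher and 4 lower at 6 h against 0 h (31.5% and 31.7%), and 2 higher and 4 lower at 6 h against 1 h (29.4% and 28.2%). The median log2 fold change of the 10 genes was -0.03, -0.11 and -0.17 in these comparisons, beside medians of 0.00 for all tested genes. The comparisons share libraries (the 0 h, 1 h or 6 h replicates) and are not independent of each other.

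**Figure D2:**
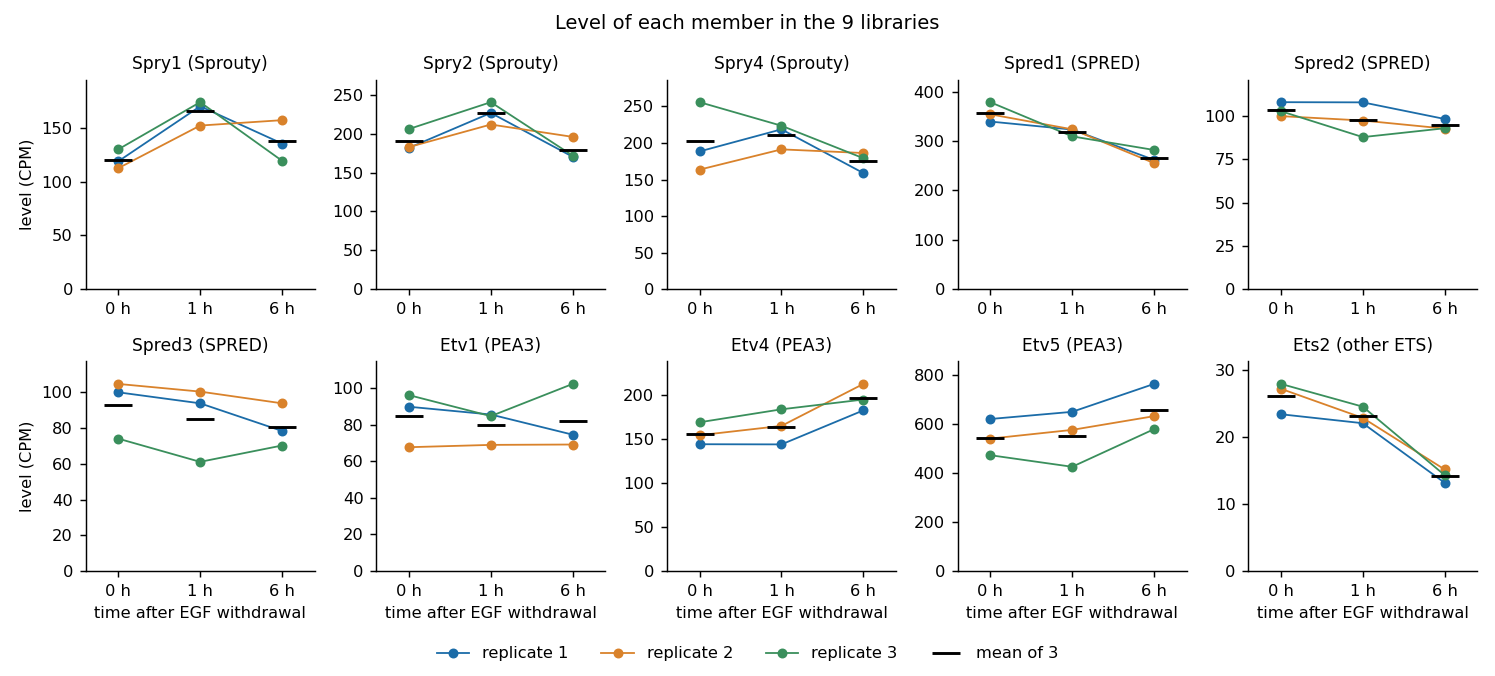
Level (CPM) of each of the 10 genes in the 9 libraries by time after EGF withdrawal; points of 1 colour joined by a line carry the same replicate number, and black bars are the means of 3. Ets2 lies at 23.41 to 27.94 CPM at 0 h and 13.17 to 15.16 CPM at 6 h, Spry1 and Spry2 are higher at 1 h than at 0 h in all 3 replicates, and in Etv5 replicate 1 is highest and replicate 3 lowest at each time point.

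Among the Sprouty genes, Spry1 was higher at 1 h than at 0 h when the libraries were paired. Spry1 (ENSMUSG00000037211, chr3:37639947-37644598, plus strand) encodes an inhibitor of signalling by FGF and other receptor tyrosine kinases. Its level was 118.8, 112.4 and 129.9 CPM in replicates 1, 2 and 3 at 0 h, 169.9, 152 and 173.7 CPM at 1 h, and 135.3, 157 and 119.3 CPM at 6 h. All libraries at 1 h were above all at 0 h, while those at 6 h overlapped with both. Of all tested genes 3.30% were higher at 1 h without overlap; among the members these were Spry1 and Spry2. The log2 fold change at 1 h was 0.46 (SE 0.11, 1.372-fold, higher in 3 of 3 replicates), with an adjusted p of 0.669 in edgeR without the block and 0.0146 with it. The blocked call was lost without 0 h replicate 1 (adjusted p = 0.0722) or without 0 h replicate 2 (adjusted p = 0.117) and held in the other 7 of 9 fits. From 1 h to 6 h the log2 fold change was -0.27 (SE 0.11), lower in 2 of 3 replicates, with an adjusted p of 0.258 in edgeR without the block and 0.0353 with it. That call too rested on single libraries: it held in 5 of 9 blocked fits, and without 6 h replicate 3 the log2 fold change was -0.13 (adjusted p = 0.224). Exons of Spry1 share 710 bases with Gm42922 on the opposite strand, which had 80 reads over the 9 libraries. The strand setting of the counting is not given in the sources used here. Whether reads in the shared bases were left out of the Spry1 counts is therefore not known.

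Spry2 (ENSMUSG00000022114, chr14:105891947-105896819, minus strand), whose protein binds the ubiquitin ligase CBL and GRB2, also had its highest mean at 1 h. It was measured at 181.8, 182.8 and 206 CPM at 0 h, 226.7, 211.8 and 240.5 CPM at 1 h, and 170.3, 195.9 and 171.8 CPM at 6 h. The libraries at 1 h stood above both other time points, and those at 0 h and 6 h overlapped. The log2 fold change at 1 h against 0 h was 0.25 (SE 0.09), with adjusted p of 1.00 in edgeR without the block and 0.0615 with it, although DESeq2 with the block gave 0.00814. From 1 h to 6 h it was -0.34 (SE 0.09, 0.7924-fold), with lower values in all 3 replicates. The adjusted p was 0.0981 in edgeR without the block and 0.00194 with it, and the blocked call held whichever of the 9 libraries was left out. Between 0 h and 6 h the log2 fold change of Spry2 was -0.08 (95% interval -0.29 to 0.12), which leaves room for a change in either direction.

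Spry4 (ENSMUSG00000024427, chr18:38586247-38601415, minus strand), another Sprouty inhibitor of RAS activation, had its widest spread at 0 h. Its level was 188.4, 163.5 and 255.7 CPM at 0 h, 218.6, 191.2 and 223.5 CPM at 1 h, and 158.8, 186.2 and 179.1 CPM at 6 h. The time points 1 h and 6 h did not overlap, while 0 h overlapped with both. No comparison of Spry4 passed the test in edgeR without or with the block. The log2 fold change was 0.06 (SE 0.16) at 1 h against 0 h and -0.21 (SE 0.16) at 6 h against 0 h. At 6 h against 1 h it was -0.27 (SE 0.16), with an adjusted p of 0.428 without the block and 0.0520 with it. Spry4 was called there when the block and the removal of GC and length trends were combined (-0.31, adjusted p = 0.0165). When 1 library was left out of the blocked fit, Spry4 was called in 4 of 9 fits at 6 h against 1 h and in 2 of 9 at 6 h against 0 h. Over the 3 Sprouty genes the summed level per kb was 160.7 to 197.2 CPM at 0 h, 194 to 222 at 1 h and 161 to 187 at 6 h, so the sums at 1 h overlapped with 0 h and not with 6 h.

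The SPRED genes all had lower means at 6 h than at 0 h, and Spred1 was the one that passed the test without the block. Spred1 (ENSMUSG00000027351, chr2:117121374-117182279, plus strand), the gene mutated in Legius syndrome, encodes a protein that recruits neurofibromin to RAS. It stood at 339.4, 354.1 and 378.6 CPM at 0 h, 323.2, 323.7 and 309.4 CPM at 1 h, and 261.8, 255.3 and 281.9 CPM at 6 h. No library of 1 time point overlapped with another: each replicate was lower at 1 h than at 0 h and lower again at 6 h. Of all tested genes 4.93% were lower at 1 h than at 0 h without overlap, 12.1% at 6 h than at 0 h and 10% at 6 h than at 1 h. Spred1 fell at 6 h against 0 h by 0.42 on the log2 scale (SE 0.07, 0.7453-fold), with adjusted p of 0.0282 in edgeR without the block and 6.1e-05 with it. This call without the block was kept only when 1 h replicate 3 was the library left out (adjusted p = 0.0339) and otherwise lay between 0.0546 and 0.123; with the block it held in 9 of 9 fits. When trends with GC content and transcript length were taken out of each library, the log2 fold change was -0.33 in both fits, with an adjusted p of 0.0848 without the block and 1.3e-05 with it. At 1 h against 0 h the log2 fold change was -0.16 (SE 0.07) with an adjusted p of 1.00 in edgeR without the block and 0.126 with it. From 1 h to 6 h it was -0.26 (SE 0.07), with an adjusted p of 0.106 without the block and 0.00218 with it.

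Spred2 (ENSMUSG00000045671, chr11:19924375-20024026, plus strand), a second SPRED gene, differed little between time points. It had 107.9, 99.85 and 102.7 CPM at 0 h, 107.8, 97.32 and 87.75 CPM at 1 h, and 98.21, 92.67 and 92.86 CPM at 6 h. The 6 h libraries were all below those of 0 h, but the gap was small: the log2 fold change was -0.13 (SE 0.08, lower in 3 of 3 replicates) with an adjusted p of 0.490 in edgeR without the block and 0.0797 with it. It was called when the block and the removal of GC and length trends were combined (-0.15, adjusted p = 0.0217), and in the blocked fit when 1 h replicate 3 was left out (-0.13, adjusted p = 0.00879). Spred3 (ENSMUSG00000037239, chr7:29158829-29170411, minus strand), the third SPRED gene, was split by replicate. It had 100.1, 104.8 and 74.14 CPM at 0 h, 93.93, 100.5 and 61.14 CPM at 1 h, and 78.44, 93.93 and 70.29 CPM at 6 h. Replicate 3 was lowest at each time point. The log2 fold change at 6 h against 0 h was -0.20 (SE 0.21), lower in 3 of 3 replicates, with an adjusted p of 0.706 in edgeR without the block and 0.0508 with it. It was called with the block when GC and length trends were removed (-0.26, adjusted p = 0.00919) and with the block in DESeq2 (adjusted p = 0.0348). Spred3 shares 202 exon bases with Ggn on the opposite strand, which had 2064 reads over the 9 libraries. The summed SPRED level per kb was 89.5 to 90.67 CPM at 0 h, 74.44 to 86.08 at 1 h and 72.47 to 72.97 at 6 h, with no overlap between time points, and Spred1 made up the larger part of it.

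None of the PEA3 genes was called lower in either edgeR fit, and Etv4 and Etv5 were higher at 6 h with the block. Etv4 (ENSMUSG00000017724, chr11:101769742-101785371, minus strand) had 143.8, 154 and 168.7 CPM at 0 h, 143.6, 164.6 and 183.4 CPM at 1 h, and 182.2, 212.2 and 194.5 CPM at 6 h. The 6 h libraries were all above those of 0 h, as in 12.8% of all tested genes, and 1 h overlapped with both. The log2 fold change at 6 h against 0 h was 0.34 (SE 0.11, higher in 3 of 3 replicates), with an adjusted p of 0.149 in edgeR without the block. With the block Etv4 rose by 0.34 (SE 0.06, 1.264-fold, adjusted p = 6.9e-04) at 6 h against 0 h. At 6 h against 1 h it rose by 0.27 (SE 0.06, adjusted p = 0.00359), and both calls held in 9 of 9 blocked fits without a library. When GC and length trends were removed, the log2 fold change at 6 h against 0 h was smaller, 0.23 in both edgeR fits. Its adjusted p was then 0.371 without the block and 8.1e-04 with it. At 1 h against 0 h the log2 fold change was 0.08 (95% interval -0.17 to 0.32).

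Etv5 (ENSMUSG00000013089, chr16:22381309-22439719, minus strand), the member with the most reads, had its replicates far apart. It stood at 621.2, 541 and 473.3 CPM at 0 h, 650.5, 576.7 and 425.9 CPM at 1 h, and 764.6, 632.8 and 579.6 CPM at 6 h. Replicate 1 was highest and replicate 3 lowest at each time point, so the time points overlapped, yet within each replicate 6 h was the highest value. The log2 fold change at 6 h against 0 h was 0.27, with an SE of 0.18 and an adjusted p of 0.489 in edgeR without the block, and with an SE of 0.06 and an adjusted p of 0.00318 (1.209-fold) with it. Against 1 h it was 0.27 with the block (adjusted p = 0.00359) and 0.26 without it (adjusted p = 0.513). Both blocked calls held in 9 of 9 fits without a library. At 1 h against 0 h the log2 fold change was 0.00 with the block (95% interval -0.12 to 0.13). The 3 replicates of Etv5 thus differed more from each other than the time points did.

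Etv1 (ENSMUSG00000004151, chr12:38779380-38870484, plus strand), the third PEA3 factor, showed no change that passed a test. It had 89.82, 67.69 and 96.18 CPM at 0 h, 85.57, 68.96 and 84.69 CPM at 1 h, and 74.54, 69.16 and 102.3 CPM at 6 h. Replicate 2 was lowest throughout, and the time points overlapped. The log2 fold change was -0.08 at 1 h and -0.04 at 6 h against 0 h, and the 95% interval at 6 h with the block was -0.21 to 0.12. The summed PEA3 level per kb was 176.9 to 204.5 CPM at 0 h, 169.2 to 211.2 at 1 h and 211.6 to 250.7 at 6 h, so 6 h did not overlap with the earlier times and most of the sum was Etv5.

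Ets2 (ENSMUSG00000022895, chr16:95702075-95721051, plus strand), an ETS activator whose protein is phosphorylated by ERK, changed most among the members. It had 23.41, 27.21 and 27.94 CPM at 0 h, 22.07, 22.86 and 24.54 CPM at 1 h, and 13.17, 15.16 and 14.31 CPM at 6 h. All 6 h libraries were below all others, and 0 h and 1 h overlapped. Ets2 fell at 6 h against 0 h by 0.88 on the log2 scale (SE 0.10, 0.5428-fold, lower in 3 of 3 replicates), with adjusted p of 0.00766 in edgeR without the block and 5.9e-07 with it. The call held in 8 of 9 fits without a library and was lost without 6 h replicate 1 (adjusted p = 0.0545, log2 fold change -0.83). Against 1 h it fell by 0.70 (SE 0.10, adjusted p = 0.0168; with the block 4.6e-06), and this call without the block was kept in 4 of 9 fits without a library. It was lost without any of the 1 h replicates 1, 2 and 3 (adjusted p = 0.0662, 0.0602 and 0.0551) and without 6 h replicate 1 (0.0926) or 3 (0.0749), while the log2 fold change stayed between -0.75 and -0.65. At 1 h against 0 h the log2 fold change was -0.18 (SE 0.10), with an adjusted p of 1.00 without the block and 0.153 with it.

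**Figure D3:**
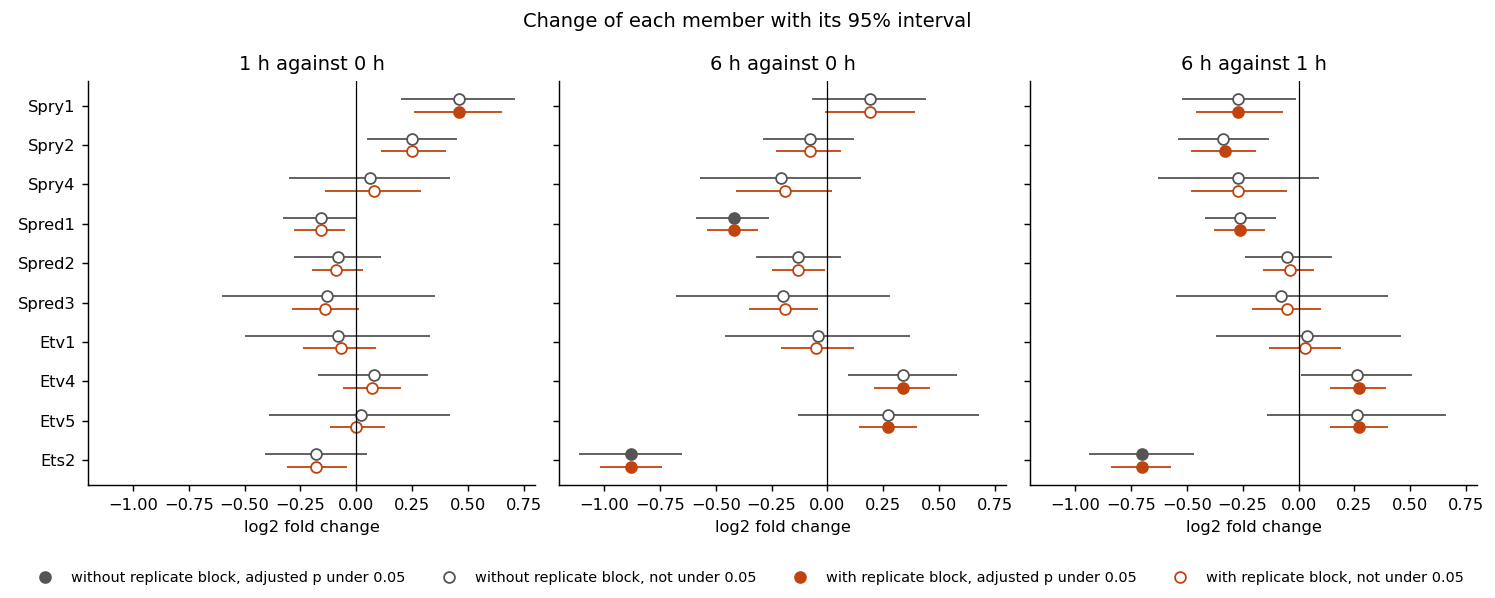
Log2 fold change of each of the 10 genes with its 95% interval in the 3 comparisons, from edgeR without (grey) and with (orange) the replicate block; filled points have an adjusted p under 0.05 over all 18858 tested genes. Ets2 at 6 h is farthest from 0 in both fits (-0.88 against 0 h), the intervals of Etv5 and Spred3 are much shorter with the block, and Spry1 and Spry2 lie above 0 at 1 h and, in the last panel, below 0.

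The members differed in whether their spread followed time or replicate number. Of the sum of squares of log2 CPM over the 9 libraries, the time point took 94.8% for Ets2, 91.2% for Spred1, 74.39% for Spry2, 72.24% for Spry1 and 62.4% for Etv4. The replicate number took 80.2% for Etv1, 79.9% for Spred3, 64.9% for Etv5 and 45.1% for Spred2. Over all tested genes the medians were 26.87% for time and 48.94% for replicate number. Replicate 3 was the lowest of the 3 by its mean over time for Spred2, Spred3 and Etv5 and the highest for Spry2, Spry4, Spred1, Etv1, Etv4 and Ets2, so the members did not differ between replicates in 1 direction.

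**Figure D4:**
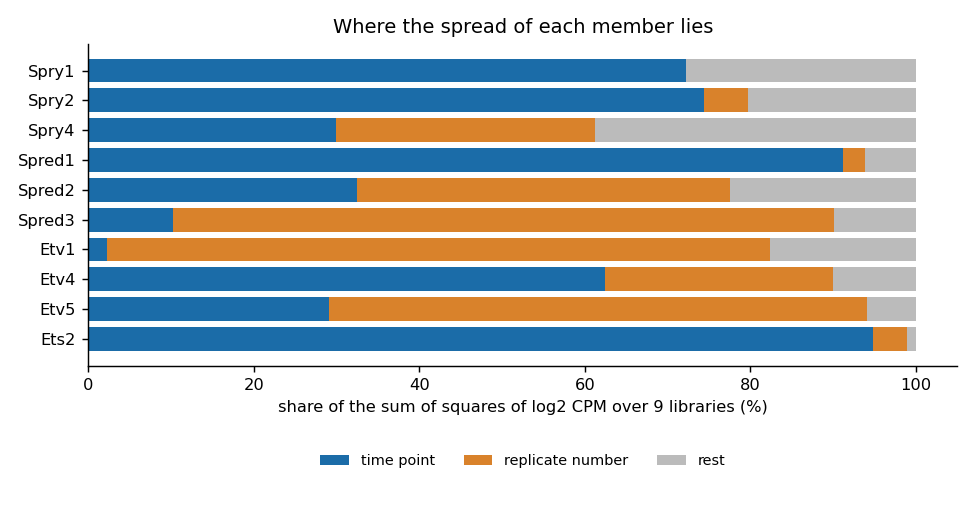
Share of the sum of squares of log2 CPM over the 9 libraries that lies between time points, between replicate numbers and in the rest, for each of the 10 genes. Time takes 94.8% for Ets2 and 91.2% for Spred1, whereas the replicate number takes 80.2% for Etv1 and 79.9% for Spred3.

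Across the 9 libraries, which share the time points and replicate numbers, the levels of some members went together. Pearson correlations of log2 CPM are given as a description. Spry1 and Spry2 had 0.81, Spry2 and Spry4 0.75, and Spred1 and Ets2 0.93. The lowest values were -0.82 for Spred2 and Etv4, -0.73 for Spred1 and Etv4, and -0.67 for Etv5 and Ets2. Etv4 and Etv5, both called higher at 6 h with the block, had -0.04, and 0.72 once the mean of each replicate number was removed; their replicates stood in opposite order at 0 h and 1 h. Among all other tested genes, those most like Spry2 over the 9 libraries were Ubald1 (0.940), Snf8 (0.929) and Hcrtr2 (0.917). Those most like Spred1 were Zfp91 (0.986), Rrn3 (0.984) and Gmfb (0.973), and those most like Etv5 were Kif1a (0.996), Als2cl (0.987) and Agap2 (0.978). With the mean of each replicate number removed, Kif1a was again the gene most like Etv5 (0.993), whereas the genes most like Spry2 and Spred1 were Egr4 (0.991) and U2surp (0.998).

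Most of the other readouts of ERK activity were lower at 6 h when the libraries were paired. Of 20 other feedback and readout genes, 2 were called at 6 h against 0 h without the block (Dusp7 higher, Egr1 lower), and 2 were higher and 15 lower with it, with a blocked median log2 fold change of -0.43 beside 0.00 for all tested genes and 17.5% of all genes called lower. Egr1, an immediate early transcription factor gene, had 52.19, 48.71 and 81.4 CPM at 0 h, 29.39, 25.42 and 31.45 at 1 h, and 12.42, 22.46 and 11.16 at 6 h. Egr1 fell by 1.98 at 6 h on the log2 scale (adjusted p = 0.0201 in edgeR without the block, 3.2e-05 with it). With the block, which applies to the rest of this paragraph, Ier2 (-0.88, adjusted p = 1.1e-04) and Maff (-0.71, 1.6e-04) also fell. Dusp6, the phosphatase of ERK in the cytoplasm, was at 420.5 ± 78.5 CPM at 0 h, 296.3 ± 85.9 at 1 h and 284.7 ± 52.3 at 6 h (SD, n = 3), and fell already at 1 h (-0.53, adjusted p = 0.00584). Egr1 and Myc fell at 1 h as well (-1.07 and -0.53, adjusted p = 0.0176 and 0.00241), while Dusp5 (0.51, 0.0101) and Flrt3 (0.41, 0.00230) rose. Dusp7, another ERK phosphatase, went from 30.4 to 36.83 and 50.8 CPM and rose by 0.75 at 6 h (adjusted p = 1.5e-05). Il17rd, which encodes the FGF receptor antagonist SEF, rose by 0.74 (adjusted p = 0.00279), but its replicates lay far apart, with 10.52, 24.95 and 156.8 CPM at 0 h and 24.68, 50.66 and 163.2 CPM at 6 h. From 1 h to 6 h 2 of the 20 were higher and 9 lower (18.0% and 17.5% of all genes), and those with the largest differences were Il17rd (1.00), Dusp5 (-0.95), Egr1 (-0.91), Maff (-0.85) and Ier3 (-0.81). The gene of highest level per kb in this list was Ccnd1 (348.3) and the lowest Spsb1 (2.044).

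Of the 16 other ETS and Capicua genes 2 were called higher at 6 h against 0 h without the block (1.46% of all genes), and 4 were higher and 4 lower with it (17.4% and 17.5% of all genes). Ets1, the closest relative of Ets2, had 40.89, 32.59 and 36.29 CPM at 0 h, 71.09, 57.79 and 57.53 at 1 h, and 126.1, 93.43 and 98.15 at 6 h. All 3 time points of Ets1 stood apart, and its means were in the order opposite to those of Ets2. Ets1 rose at 6 h by 1.53 on the log2 scale (adjusted p = 0.00560 in edgeR without the block, 4.3e-09 with it) and, with the block, at 1 h by 0.76 (adjusted p = 3.4e-06). Cic, which encodes Capicua, had 166.1, 143.5 and 156.2 CPM at 0 h and 237.3, 218.6 and 220.3 CPM at 6 h. It rose by 0.54 (adjusted p = 0.0299 in edgeR without the block, 1.1e-05 with it). Atxn1, whose protein binds Capicua, rose by 0.48 with the block (adjusted p = 0.00868), from a mean of 2.645 CPM at 0 h to 3.652 at 6 h. Atxn1l, of the same list, fell by 0.19 with the block (adjusted p = 0.0196), from a mean of 89.04 CPM at 0 h to 78.16 at 6 h. Erf, an ETS repressor controlled by ERK, rose at 1 h with the block (0.54, adjusted p = 1.8e-04). At 6 h, with the block, Erf was lower than at 1 h (-0.32, adjusted p = 8.9e-04) but still higher than at 0 h (0.22, adjusted p = 0.0105). Elf1 was higher at 6 h against 1 h with the block (0.36, adjusted p = 0.00226). Etv6 and Elk4 fell at 6 h with the block by 0.33 and 0.32 (adjusted p = 3.2e-04 and 9.2e-04). Elk3 had the highest level per kb of this list (26.22) and Elf4 the lowest (0.0508).

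Upstream of the members, the 25 genes from receptor to ERK had no call without the block in any comparison (edgeR; 1, 4 and 5 at an unadjusted p under 0.05 in 1 h against 0 h, 6 h against 0 h and 6 h against 1 h, and 0, 1 and 2 called by DESeq2). With the block 6 were higher and 5 lower at 6 h against 0 h, with a median of -0.01, where 17.4% of all genes were higher and 17.5% lower. Map2k1, which encodes the kinase MEK1, rose by 0.36 (adjusted p = 8.4e-05), the receptor gene Erbb2 by 0.35 (2.2e-04), Mapk3, the gene of ERK1, by 0.31 (0.00247), Braf by 0.24 (0.0244) and Egfr by 0.21 (0.0392). Among the lower genes were Fgfr3 (-0.21, adjusted p = 0.0124), Ptpn11, the gene of the phosphatase SHP2 (-0.21, 0.00344), Map2k2 (-0.19, 0.0390) and Nras (-0.15, 0.0257). At 1 h only Sos1, the RAS activator, was called with the block (-0.31, adjusted p = 0.0205). At 6 h against 1 h with the block 6 of the 25 were higher and 4 lower, where 18.0% of all genes were higher and 17.5% lower. The largest differences among those called were Erbb2 (0.38, adjusted p = 1.2e-04), Map2k2 (-0.34, 0.00150), Egfr (0.29, 0.00751), Braf (0.29, 0.00895) and Hras (-0.28, 0.00988). Egfr had the highest level per kb of the list (60.22) and Erbb3 the lowest (0.0369). Of 12 partners of Sprouty and SPRED proteins, with Spry3 among them, none was called at 6 h against 0 h without the block in edgeR (2 at an unadjusted p under 0.05, 2 by DESeq2), and with it 2 were higher and 1 lower, a smaller share than the 34.9% of all genes called. These were Cav1, the caveolin gene (1.32, adjusted p = 6.7e-06), Prkcd, a protein kinase C gene (0.99, 0.00162), and Dyrk1a, a kinase that inhibits Sprouty (-0.28, 0.00107). Cav1 was also higher at 1 h (0.63, adjusted p = 0.0164), and Cbl was higher at 6 h against 1 h (0.28, 0.0137). Ppp2ca had the highest level per kb of the partners (59.2) and Prkcd the lowest (0.1207).

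**Figure D5:**
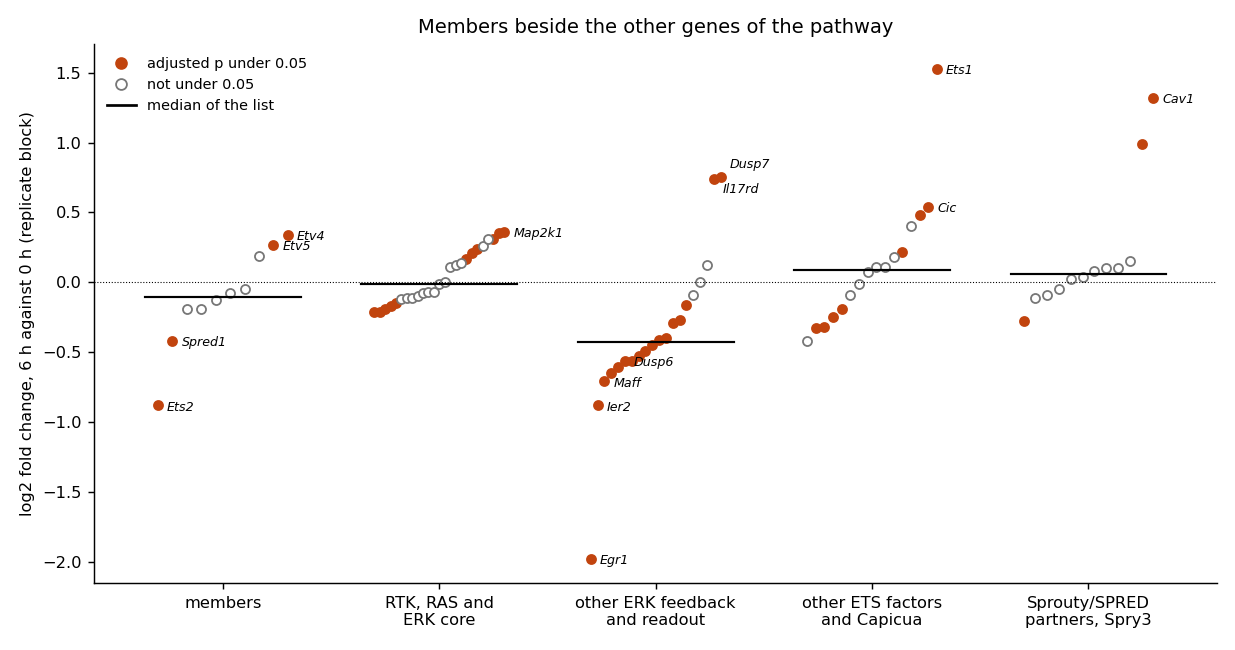
Log2 fold change at 6 h against 0 h with the replicate block for the 10 members and the genes of the 4 pathway lists, sorted within each list; filled points have an adjusted p under 0.05 and bars are medians. The list of other feedback and readout genes has its median at -0.43 with Egr1 at -1.98, while Ets2 (-0.88) and Etv4 (0.34) mark the range of the members and Ets1 (1.53) is the highest of all genes shown.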

How the data were processed

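Total RNA of NSC cultures was used by the authors for stranded mRNA libraries, which were sequenced as paired-end reads. The authors aligned them to mm10 (GRCm38) with STAR 2.5.3a and deposited raw read counts per gene; per the labels, FastQC and DESeq2 1.22.1 were also used. The strand setting and annotation release of the counting are not given in the sources used here. Total counts were 65871454 to 105592597 per library, and no pair of libraries agreed within sampling noise (lowest chi-square per degree of freedom 12.49).

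From the deposited counts, differential expression was computed with edgeR 4.0.16 in R 4.3.3 (filterByExpr with minimum count 10 and total 15, TMM, glmQLFit and glmQLFTest), with time point as the only factor over all 9 libraries; 18858 genes were tested and p-values adjusted (Benjamini-Hochberg) over all of them, with a threshold of 0.05. CPM are the counts divided by the TMM-scaled library sizes; log2 CPM used a prior count of 2. SE was derived from the F statistic. After subtraction of time point means, libraries with the same replicate number (from the labels) correlated at 0.733 to 0.800 in 9 pairs, and others at -0.462 to -0.314 in 18, so the numbers pair the samples. The blocked fit is given beside a result where it changes the call. Alternatives were DESeq2 1.42.0, the block, RLE scaling, no scaling, 2 other filters, the 6 libraries compared, removal of GC and length trends (splines, 4 degrees of freedom, 99.6% of genes) and leaving out each library; leaving out libraries within the blocked fit was added after seeing the data. The fits were tested on simulated data. Figures were made with matplotlib 3.10.9.

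The members and lists were chosen with earlier results of these data known. All members are named, and of each list the genes called in either edgeR fit, up to 5 per comparison by size of change, the highest and lowest per length, and the 3 genes most correlated with Spry2, Spred1 and Etv5. Some lower core genes and Atxn1l at 6 h against 0 h were named after their values were seen, and the other called list genes are counted only. Some list genes are not reported here, and splicing was not analysed here.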

Additional observations from a re-analysis of the deposited data

Results flagged for a closer look

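The change of Ets2 differed between the time points. Its log2 fold change against 0 h was -0.18 at 1 h and -0.88 at 6 h, and the difference of these, tested as 6 h against 1 h, was -0.70 (adjusted p = 0.0168 in edgeR without the block, 4.6e-06 with it, lower in 3 of 3 replicates). Without 1 library in turn this difference was -0.75 to -0.65, and groups of 3 libraries were not searched for outlying samples.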

How the results depend on the processing

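The counts of members called depended on whether the replicate number was a block. For members higher at 1 h against 0 h, 0 without the block, the count was 1 with it, 2 in DESeq2 with it, and 1 with it and GC and length trends removed. At 6 h against 0 h 2 members were higher, instead of 0, in each of these 3 fits. The members lower there, 2 in the fit reported first, were 3 in DESeq2 with the block and 4 with GC and length trends removed and the block. They were 1 with no filter on low counts, 1 in the fit of only the 6 libraries compared and 1 with those trends removed. At 6 h against 1 h 2 were higher, instead of 0, in each of the 3 blocked fits, and those lower, 1 in the fit reported first, were 4 with the block, 3 in DESeq2, 4 in DESeq2 with the block, 0 in the fit of only the 6 libraries and 5 with the trends removed and the block. Without 1 library in turn, the members lower ranged from 0 to 2 at 6 h against 0 h and from 0 to 1 at 6 h against 1 h. In the blocked fit those higher ranged from 0 to 2 at 1 h against 0 h, from 2 to 3 at 6 h against 0 h and were 2 at 6 h against 1 h, and those lower ranged from 2 to 4 and from 3 to 5 at 6 h.

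Over all genes, 8, 456 and 404 were called at 1 h against 0 h, 6 h against 0 h and 6 h against 1 h; with the block they were 661, 6581 and 6710, in DESeq2 72, 1498 and 1425, in DESeq2 with the block 918, 6089 and 6213, in fits of only the 6 libraries 4, 113 and 21, and with the trends removed and the block 747, 7051 and 7384. With no filter on low counts they were 205 and 220 at 6 h against 0 h and 1 h. Without 1 library they ranged from 1 to 7, 39 to 508 and 30 to 199.

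The sign turned only for values near 0. With GC and length trends removed Etv1 turned to 0.02 at 1 h and 0.06 at 6 h against 0 h, with or without the block. When 1 library was left out, with or without the block, the values that turned lay in these ranges. At 1 h against 0 h they were -0.07 to 0.26 for Spry4 (-0.05 to 0.23 with the block), -0.27 to 0.07 for Spred3, -0.22 to 0.02 for Etv1 (-0.13 to 0.02), -0.01 to 0.17 for Etv4 and -0.12 to 0.17 for Etv5 (-0.06 to 0.09, with -0.02 in between). At 6 h against 0 h they were -0.24 to 0.07 for Etv1 (-0.15 to 0.06, with 0.01 in between), and at 6 h against 1 h -0.12 to 0.03 for Spred2, -0.27 to 0.07 for Spred3 (-0.15 to 0.04, with 0.01 in between) and -0.15 to 0.16 for Etv1 (-0.07 to 0.14). Of 840 values of single members under the alternatives, 676 kept direction and call, 112 gained a call, 18 lost one and 34 turned. The cause of these shifts was not tested. The median of all genes moved by at most 0.03 under other scalings. The spread that edgeR estimated over all genes, as a coefficient of variation, was 0.277 without pairing and 0.0627 with pairing.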
